A study of Mus musculus with 60 samples.

Results

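The 33 genes described here encode proteins of DNA repair and of the DNA damage checkpoint, and their messenger RNA was measured in Balb/c 3T3 cells, an established mouse fibroblast line. They were chosen by name: 9 work at replication forks or in homologous recombination (Brca1, Brca2, Rad54l, Exo1, Blm, Fancd2, Fanca, Chek1 and Msh6), 13 in nucleotide excision, base excision or single-strand break repair (Xpc, Xpa, Ddb1, Ddb2, Ercc1, Ercc2, Ercc5, Rad23b, Xrcc1, Parp1, Ogg1, Ung and Apex1), and 11 elsewhere (the checkpoint genes Chek2, Atm, Atr and Mdc1, the translesion genes Polh, Polk, Rev1 and Rad18, the end-joining genes Xrcc5 and Xrcc6, and Mgmt). All 33 had a named probe set and all 33 passed the filter on low values, out of 18194 named genes and 12637 genes tested. The brightest probe set stood for each gene, so levels were compared between arrays and never between genes.

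The cells were exposed to 2-acetylaminofluorene (AAF), benzo(a)pyrene (BaP), 2,4-diaminotoluene (DAT) or 3-methylcholanthrene (MCA), carcinogens that cells convert to reactive metabolites, or to 0.75% DMSO, the solvent, and the study asked whether such a cell line can serve in carcinogen testing. A first set used concentrations from the literature, namely AAF at 25 µM, BaP at 0.5 µM, DAT at 50 µM and MCA at 2 µM, for 24 h and for 120 h. A second set used the labels' IC20 concentrations, which differed with time except for AAF: AAF at 10 µM, BaP at 1.5 µM, DAT at 700 µM and MCA at 20 µM for 24 h, and AAF at 10 µM, BaP at 0.1 µM, DAT at 0.2 µM and MCA at 0.1 µM for 120 h. Each set and time had its own DMSO cultures, which gave 20 groups of 3 single-colour arrays, 60 in all. The treatments of a set and time share those 3 DMSO arrays and are therefore not independent of each other, and since the labels say only that experiments were run in triplicate, p-values measure only the spread between these arrays.

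The 2 sets were deposited on different scales and were never compared directly: the trimmed mean intensity was 500 on every array of the second set and 153 to 188 in the first. Arrays of a group correlated with each other at 0.986 to 0.996 in the first set and at 0.968 to 0.980 in the second, and the median residual standard deviation was 0.11 against 0.22 on the log2 scale, so smaller changes could be called in the first. The fibroblast markers, Col1a1 among them, stood above the array median on 60 of 60 arrays. The epithelial markers Krt18 and Cldn4, the endothelial markers Pecam1, Cdh5 and Tek and the leukocyte marker Ptprc did so on 0 arrays and Cdh1 and Kdr on 1, while Epcam did so on 53, the macrophage genes Cd14 on 60, Csf1r on 59, Adgre1 on 29 and Cd68 on 23, and Krt8 on 13; the part of other cell types in the values was not tested.

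Homologous recombination rebuilds a broken or stalled fork from the sister strand, so its genes are mostly transcribed in cycling cells from late G1 onward, many of them under E2F factors. Nucleotide excision repair cuts out bulky adducts such as those left by polycyclic hydrocarbons, and base excision repair removes small base lesions; most of their genes are transcribed in resting cells as well. In mouse cells p53 can raise some damage-recognition genes, while translesion polymerases copy past adducts that were not removed.

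Promoter windows from RefSeq (GRCm38.p6), running from 250 bases before to 50 after the start, were held for 29 of the 33 genes; those of Exo1, Fancd2, Xpc and Ddb2 were not used here. A plain search on both strands for 4 E2F words (TTTCCCGC, TTTGGCGC, TTTCGCGC and TTTGCCGC, scored as present or absent) found a match in 2 of 7 replication-linked genes (28.6%), 0 of 11 excision repair genes and 3 of 11 others (27.3%), beside 2.6% of 27025 genes with a window. The letters TTTGAA, a cell-cycle homology element, stood in 0 of 7, 1 of 11 and 0 of 11, beside 20.2% of all genes. The core GCGTG, to which the aryl hydrocarbon receptor binds, stood in 3 of 7, 8 of 11 and 8 of 11, beside 35.2%. The windows below are those of Brca1 (chr11:101551906-101552205, minus strand) and Rad54l (chr4:116123640-116123939, minus strand), called in more treatments than most of the 33 and without an E2F word, and those of Brca2 (chr5:150522371-150522670, plus strand), Chek2 (chr5:110839733-110840032, plus strand) and Mdc1 (chr17:35841248-35841547, plus strand), where the E2F word is in capitals and begins at -168, -152 and -16. Each runs 5′ to 3′ on the gene's strand; a match describes letters in these windows and is not a site.
Brca1: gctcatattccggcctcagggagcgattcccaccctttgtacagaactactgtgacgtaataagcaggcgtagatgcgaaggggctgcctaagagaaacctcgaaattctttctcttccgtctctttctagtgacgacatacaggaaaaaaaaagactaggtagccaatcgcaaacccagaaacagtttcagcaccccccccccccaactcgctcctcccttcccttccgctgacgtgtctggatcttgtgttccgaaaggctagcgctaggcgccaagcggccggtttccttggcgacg
Rad54l: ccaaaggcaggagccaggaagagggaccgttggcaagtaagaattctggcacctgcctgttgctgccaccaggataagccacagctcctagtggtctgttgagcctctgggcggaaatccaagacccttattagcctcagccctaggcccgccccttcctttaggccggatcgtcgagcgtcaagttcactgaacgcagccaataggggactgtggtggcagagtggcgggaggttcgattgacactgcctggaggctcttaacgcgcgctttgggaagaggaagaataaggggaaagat
Brca2: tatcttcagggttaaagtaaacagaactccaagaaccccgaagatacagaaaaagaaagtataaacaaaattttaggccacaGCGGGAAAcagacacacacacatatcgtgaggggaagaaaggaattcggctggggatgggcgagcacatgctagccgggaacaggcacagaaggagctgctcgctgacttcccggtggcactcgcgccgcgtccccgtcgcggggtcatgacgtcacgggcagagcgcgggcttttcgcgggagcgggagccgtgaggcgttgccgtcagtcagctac
Chek2: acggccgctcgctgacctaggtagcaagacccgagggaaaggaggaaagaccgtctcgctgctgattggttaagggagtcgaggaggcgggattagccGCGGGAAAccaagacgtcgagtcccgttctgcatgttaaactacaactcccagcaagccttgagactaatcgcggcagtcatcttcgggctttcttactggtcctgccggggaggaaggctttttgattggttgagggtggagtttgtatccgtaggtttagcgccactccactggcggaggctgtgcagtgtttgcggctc
Mdc1: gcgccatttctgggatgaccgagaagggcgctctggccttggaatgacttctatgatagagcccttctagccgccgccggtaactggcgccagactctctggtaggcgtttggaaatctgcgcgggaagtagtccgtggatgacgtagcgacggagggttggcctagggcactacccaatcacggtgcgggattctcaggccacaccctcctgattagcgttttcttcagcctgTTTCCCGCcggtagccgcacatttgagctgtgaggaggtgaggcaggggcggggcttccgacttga

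**Figure D1:**
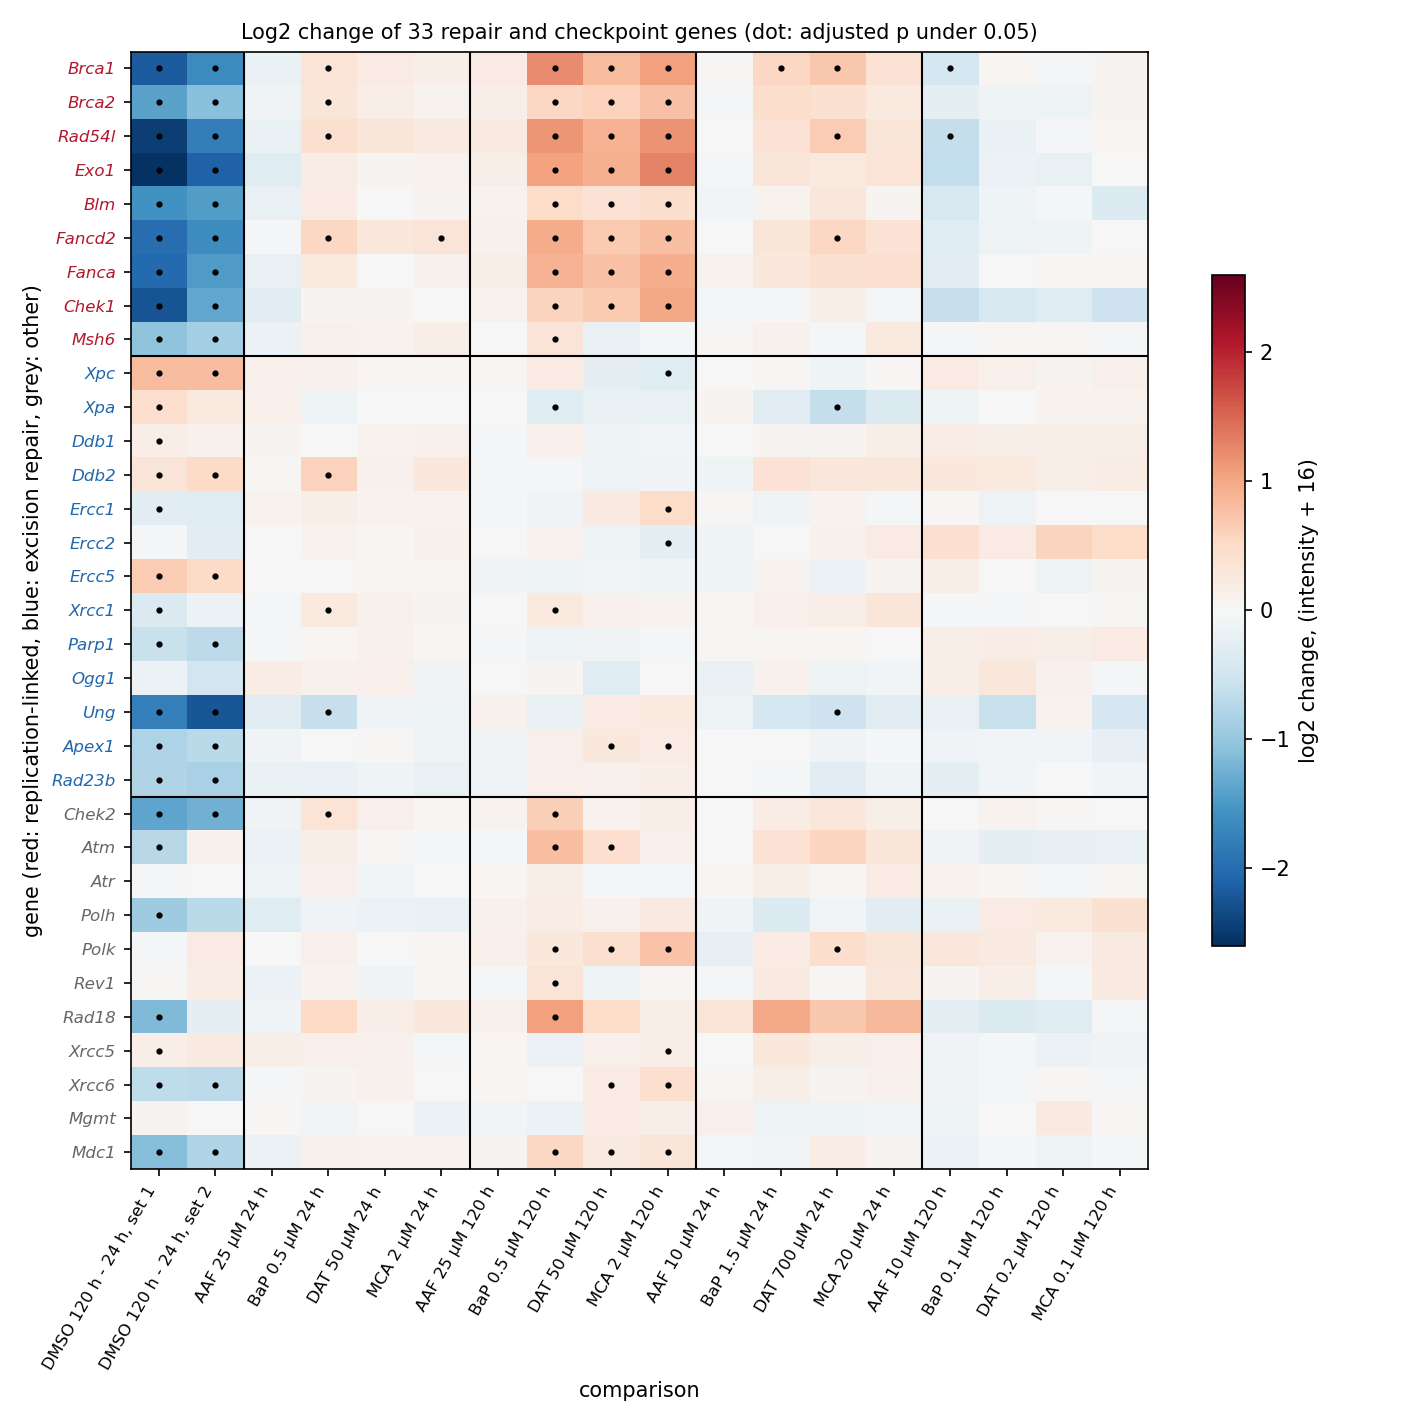
Log2 change of each of the 33 genes (rows, ordered by class) in the 2 control time comparisons and the 16 treatments (columns), with a dot where the limma adjusted p was under 0.05. The replication-linked rows are low in both control columns and high in the 120 h columns of BaP 0.5 µM, DAT 50 µM and MCA 2 µM, apart from Msh6 after DAT and MCA.

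In the solvent controls the replication-linked genes fell between 24 h and 120 h in both sets, while several nucleotide excision repair genes rose. All 9 replication-linked genes passed as lower in the first set, with log2 changes of -2.56 to -1.05, and all 9 in the second, with -2.11 to -0.89. Of the 33 genes, 6 were higher and 21 lower in the first set and 3 higher and 16 lower in the second; of all genes tested, 57.7% were called in the first (29.3% higher, 28.4% lower) and 40.2% in the second (17.8% higher, 22.4% lower). The late arrays of 27 and 25 genes stood wholly above or below the early ones after normalization, as did those of 59.3% and 48.8% of all genes. "Passed" and "called" mean an adjusted p under 0.05 by limma, two-sided and adjusted over all genes tested. The median change of the 9 was -2.02 and -1.48, beside 0.00 and -0.05 over all genes.

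Rad54l, a motor protein of homologous recombination, gave intensities of 403, 303 and 384 on the DMSO arrays at 24 h of the first set and 47.6, 62.4 and 58.2 at 120 h. The ranges lay far apart, a change of -2.46 ± 0.09 on the log2 scale (SE, n = 3 against 3; limma adjusted p = 2.05e-18). In the second set it gave 1145, 1189 and 1145 at 24 h and 368, 335 and 409 at 120 h, again apart (-1.79 ± 0.12, limma adjusted p = 2.14e-11). Exo1, a nuclease that resects broken ends and serves mismatch repair, went from 409.9, 335 and 469.9 to 50.0, 53 and 71.3 in the first set (-2.56 ± 0.10, limma adjusted p = 5.98e-18). Every early array stood above every late one, as they did in the second set, with 1241, 1282 and 1204 against 297, 296 and 374 (-2.11 ± 0.18, limma adjusted p = 4.39e-10). Brca1, which directs broken ends to recombination, went from 431, 397 and 495 to 77.0, 90.4 and 99.2 in the first set (-2.17 ± 0.08, limma adjusted p = 5.46e-19). Chek1, the kinase that slows origin firing when forks stall, had log2 changes of -2.24 and -1.34 in the 2 sets, Fanca of the Fanconi core complex of -2.02 and -1.48, and Fancd2, which that complex ubiquitinates, of -1.98 and -1.64. The smallest falls of the 9 were those of Msh6, the mismatch recognition subunit, at -1.05 and -0.89.

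Excision repair divided by gene. Xpc, which finds helix-distorting lesions, gave 149, 146 and 196 at 24 h and 276, 316 and 329 at 120 h in the first set and 600.0, 679 and 574 against 1174, 1225 and 1117 in the second. The late arrays were higher without overlap in both sets (0.83 ± 0.09 and 0.80 ± 0.11, limma adjusted p = 1.85e-08 and 1.17e-06). Ercc5, the nuclease that cuts on the 3′ side of the lesion, rose by 0.65 ± 0.08 and 0.50 ± 0.15 (limma adjusted p = 3.08e-08 and 0.0102). Ddb2, which recognises lesions in chromatin, rose by 0.33 ± 0.09 and 0.50 ± 0.15 (limma adjusted p = 0.00284 and 0.00949). Xpa, the scaffold that verifies the lesion, and Ddb1, the partner of Ddb2, passed as higher in the first set, at 0.43 and 0.17, and not in the second, at 0.25 and 0.10. The rises in the second set and those of Ddb1 and Ddb2 in the first depended on the scaling, while Xpc, Ercc5 and Xpa kept their calls in the first set: with arrays scaled by their medians, which moved the median of all genes in the second set to -0.38, 0 of the 33 genes passed as higher there and 22 as lower (of all called genes 12.2% were then higher, in place of 44.3%), and 3 as higher and 21 as lower in the first.

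Ung, the glycosylase that removes uracil from newly made DNA, had the largest fall of its class in both sets. Its intensities were 122, 99.1 and 173 at 24 h and 27.9, 25.6 and 31.9 at 120 h in the first set, and 494, 628 and 522 against 120.1, 139 and 154 in the second. No late array reached an early one (-1.78 ± 0.17 and -2.23 ± 0.16, limma adjusted p = 6.98e-10 and 2.3e-11). Ung was a dim gene, above the array median on 42 of 60 arrays. Its late intensities in the first set lay under the array medians there, which ran from 41.2 to 47.1. Apex1, the endonuclease that opens abasic sites, Parp1, the sensor of strand breaks, and Rad23b, the partner of Xpc, also fell in both sets, with log2 changes of -0.80 and -0.69, -0.57 and -0.67, and -0.77 and -0.84. Ercc1, part of the nuclease that cuts on the 5′ side, and Xrcc1, a scaffold for single-strand break repair, fell in the first set, at -0.29 and -0.37, and did not pass in the second, at -0.32 and -0.16. Ogg1, which removes oxidised guanine, and Ercc2, a helicase of TFIIH, passed in neither set.

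Among the other genes, Chek2, the effector kinase of ATM, had log2 changes of -1.37 and -1.25, Mdc1, the mediator at damaged chromatin, of -1.11 and -0.79, and Xrcc6, a Ku subunit of end joining, of -0.67 and -0.68, and all passed as lower in both sets. Rad18, the ligase that ubiquitinates PCNA, Polh, a polymerase that bypasses ultraviolet lesions, and Atm, the kinase that senses breaks, passed as lower in the first set, at -1.15, -0.93 and -0.72, and not in the second, at -0.24, -0.70 and 0.11. Of 29 other recombination and Fanconi genes 20 were lower and 2 higher in the first set, and 19 lower and 0 higher in the second; of 18 other checkpoint genes 16 and 15 were lower. Of 19 replication and proliferation markers all 19 were lower in both sets, with medians of -1.94 and -1.65, and in bulk RNA fewer cycling cells and less RNA per cell cannot be told apart. The part of cycling in the members' changes was not tested. Cdkn1a, the cyclin-dependent kinase inhibitor p21, was higher by 0.84 and 1.26. In the second set the ratio of 3′ to 5′ actin probe sets also moved, from 0.31 ± 0.09 to 0.53 ± 0.10 (log2, SD, n = 3), and in the first set that of the Gapdh probe sets, from -0.29 ± 0.04 to -0.16 ± 0.03; their part was not tested.

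At 24 h of the first set, BaP at 0.5 µM was the treatment with the most calls: Ddb2 rose, Ung fell, and 4 replication-linked genes, Chek2 and Xrcc1 rose. Of the 33 genes 7 were higher and 1 lower, where 9.42% of all genes were called (4.51% higher, 4.91% lower), and the arrays of 13 genes stood above and of 2 below all DMSO arrays, as those of 24.8% of all genes did in either direction. All 9 replication-linked genes had a positive change, with a median of 0.26. Of the 19 replication markers 2 passed as higher, and the marker median was 0.08. The part of cycling was not tested. Median changes of the excision repair and other classes were 0.06 and 0.12, beside 0.00 for all genes.

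Ddb2 gave 138, 98.9 and 109.5 on the DMSO arrays and 204, 181 and 179.7 after BaP. All 3 treated arrays were higher (0.61 ± 0.09, limma adjusted p = 3.03e-05), and a second Ddb2 probe set also passed, at 0.52. Fancd2 gave 251, 188 and 224 in DMSO and 349, 299 and 360.2 after BaP, without overlap (0.54 ± 0.08, limma adjusted p = 3.07e-05). Rad54l gave 403, 303 and 384 in DMSO and 531, 453 and 501 after BaP. Its treated arrays were also all higher (0.41 ± 0.09, limma adjusted p = 0.00307). Brca1 rose by 0.35, Chek2 by 0.36, Brca2, a mediator of homologous recombination, by 0.31, and Xrcc1 by 0.25 (limma adjusted p = 0.00251, 0.0297, 0.0311 and 0.00705). Ung moved the other way, from 122, 99.1 and 173 to 81.2, 74.2 and 84.9, all treated arrays lower (-0.60 ± 0.17, limma adjusted p = 0.023). Without any 1 of the 3 BaP arrays 5 of the 8 calls were left. The Ung call was lost without any 1 of these or without DMSO array 3, and those of Chek2 and Brca2 without 5 and 4 of the 6 arrays in turn. The Xrcc1 call was lost without BaP array 1. It was also lost with median scaling, in a fit of all 60 arrays and in the fit of these arrays alone. With the replicate number as a block 12 genes passed, while the shares of all genes given here are those without the block.

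The other 24 h treatments of the first set gave 1 call among the 33 genes. After MCA at 2 µM Fancd2 gave 301, 257 and 293, above all 3 DMSO arrays (0.34 ± 0.08, limma adjusted p = 0.0146), the 1 gene to pass where 2.22% of all genes did (1.08% higher, 1.14% lower). This call was lost without DMSO array 2 or 3 or MCA array 1 or 3, and 2 genes passed without DMSO array 1. The MCA arrays of 8 genes did not overlap DMSO, as those of 12.6% of all genes did not. After DAT at 50 µM, where 0.174% of genes passed, 0 of the 33 did by limma, 3 had an unadjusted p under 0.05, and 7 did not overlap DMSO, as 14.9% of all genes did not; 2, Rad54l and Fancd2, passed with the replicate block. After AAF at 25 µM, where 0.91% of genes passed, 0 did, 6 had an unadjusted p under 0.05, and 1, Exo1, passed with the block as lower. All 9 replication-linked changes after AAF lay below 0, from -0.31 to -0.05, and 10 of the 33 genes had every treated array below every DMSO array, as 15.6% of all genes had in either direction. Cyp1a1, the oxidase that the aryl hydrocarbon receptor induces and that activates BaP and MCA, was higher by 5.21 after BaP, 5.11 after MCA, 2.48 after DAT and 0.71 after AAF. Ddb2 after MCA was at 0.27 and did not pass (limma adjusted p = 0.145).

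At 120 h the replication-linked genes were higher than in DMSO after BaP at 0.5 µM, DAT at 50 µM and MCA at 2 µM, while none passed after AAF at 25 µM. After BaP all 9 passed as higher, with changes of 0.34 to 1.24 and a median of 0.90; after DAT and MCA 8 of 9 did, Msh6 being the exception, with medians of 0.69 and 0.95. Over the 33 genes 16 were higher and 1 lower after BaP, 13 and 0 after DAT, and 14 and 2 after MCA. Of all genes tested 26.8% were called after BaP (13.8% higher, 13% lower), 23.7% after DAT (11.7% higher, 12% lower) and 39.1% after MCA (18.9% higher, 20.3% lower). With arrays scaled by their medians the share of called genes that were higher went from 51.6% to 63.3% after BaP, from 49.3% to 61.6% after DAT and from 48.2% to 66.1% after MCA. The arrays of 22, 20 and 20 of the 33 genes did not overlap DMSO after BaP, DAT and MCA, where those of 38.8%, 33% and 49% of all genes did not. The excision repair median was 0.08, -0.08 and -0.05 and that of the other class 0.27, 0.21 and 0.18, beside -0.01, -0.02 and -0.02 for all genes.

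**Figure D2:**
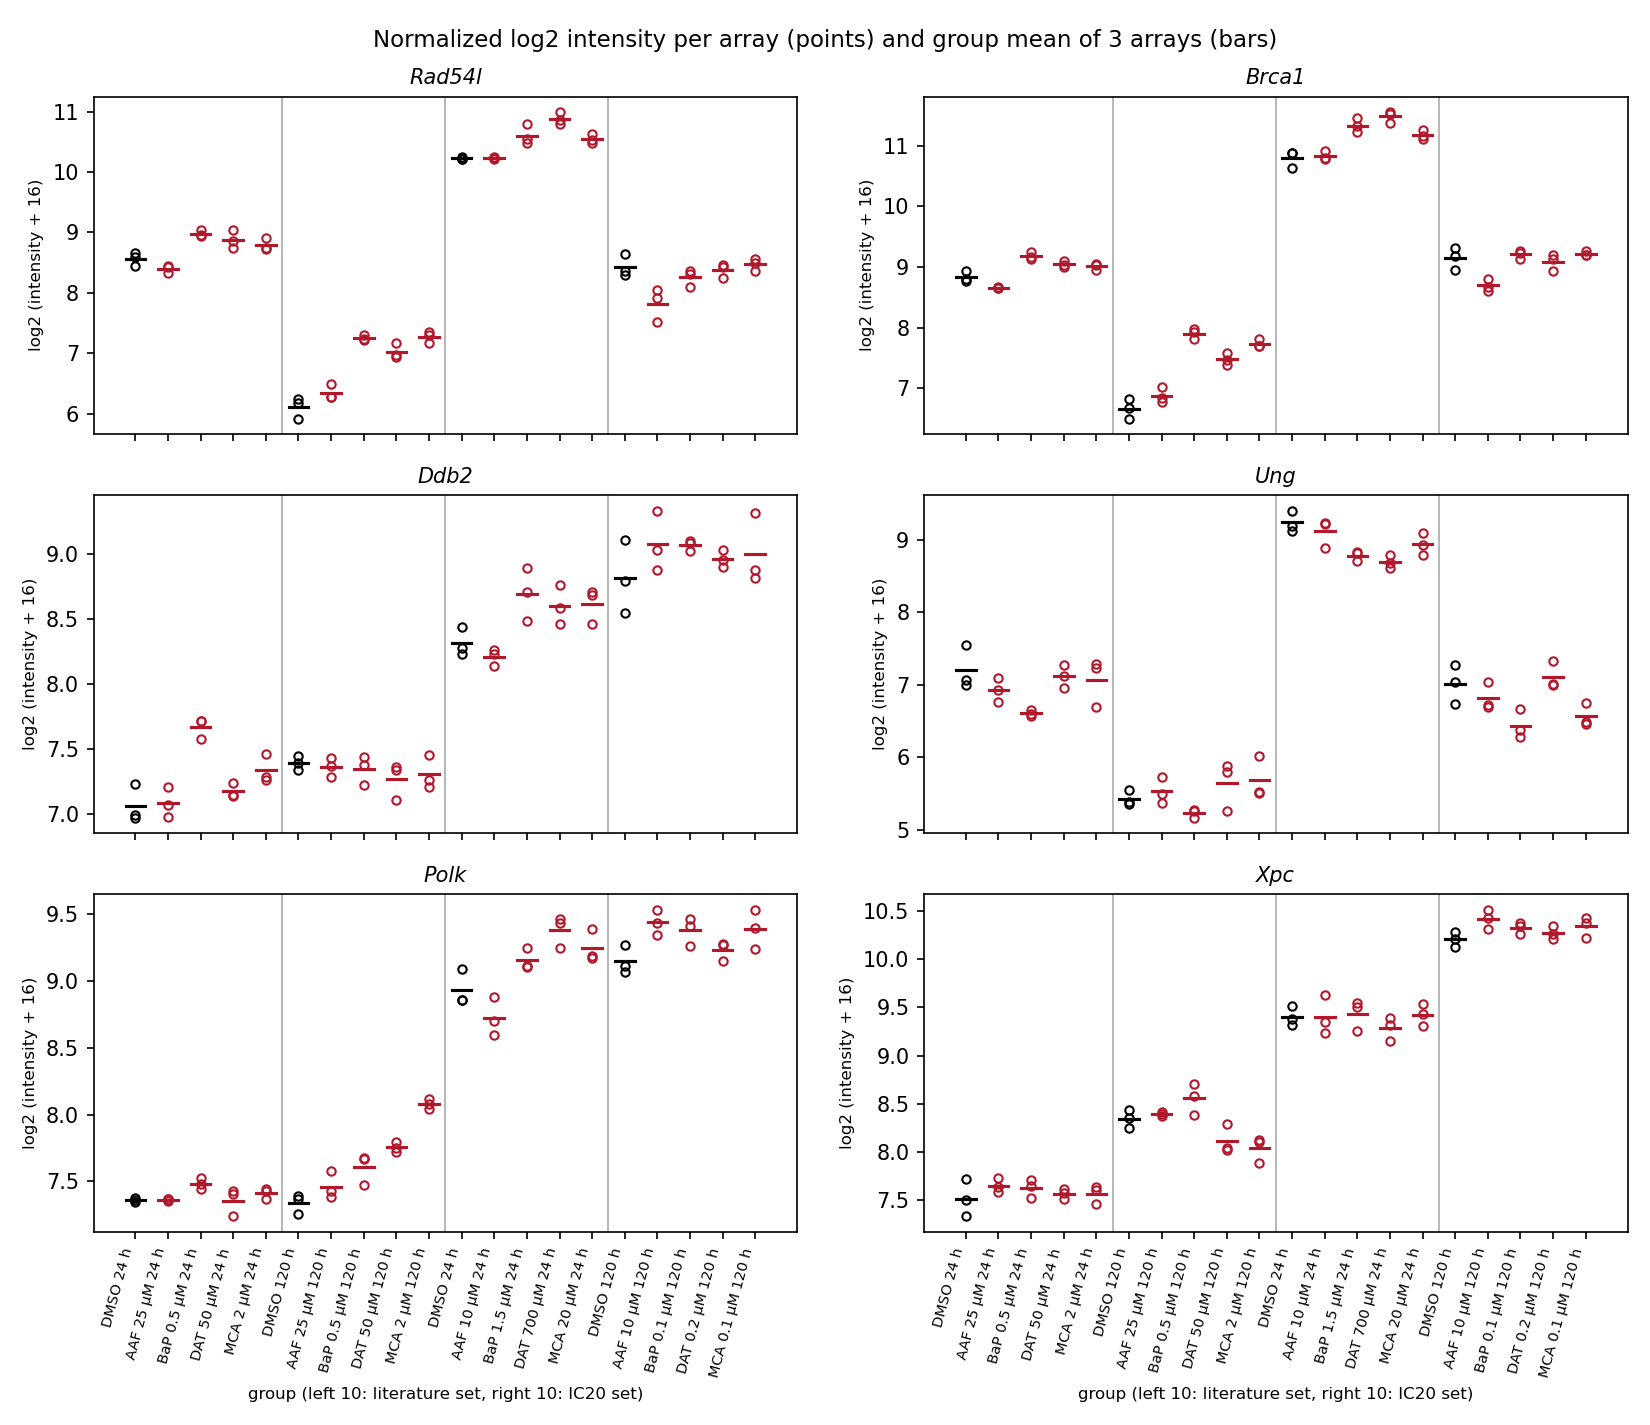
Normalized log2(intensity + 16) of Rad54l, Brca1, Ddb2, Ung, Polk and Xpc on each of the 60 arrays (points; bars are means of 3 arrays), with DMSO in black and treatments in red, the first set in the left 10 groups and the second in the right 10. In the first set Rad54l and Brca1 are lower at 120 h than at 24 h in DMSO and lie higher at 120 h after BaP, DAT and MCA than in DMSO, below their 24 h level, and Polk is highest after MCA at 120 h.

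Brca1 gave 77.0, 90.4 and 99.2 in DMSO at 120 h and 224, 248.7 and 226 after BaP. It gave 178, 125 and 184 after DAT and 177, 199 and 214 after MCA. No treated array fell within the DMSO range, and none reached the DMSO arrays of 24 h. The changes were 1.24 ± 0.08, 0.81 ± 0.08 and 1.07 ± 0.08 (limma adjusted p = 1.05e-12, 5.69e-09 and 7.84e-12). Rad54l, at 47.6, 62.4 and 58.2 in DMSO, gave 156, 141 and 136 after BaP, 142, 92.0 and 114 after DAT and 136, 131 and 144 after MCA. These too were all above DMSO (1.14 ± 0.09, 0.91 ± 0.09 and 1.16 ± 0.09, limma adjusted p = 1.69e-10, 1.89e-08 and 6.39e-11). Exo1, at 50.0, 53 and 71.3 in DMSO, gave 130.2, 145 and 137 after BaP, 129, 98.2 and 131 after DAT and 143, 155 and 169 after MCA, each group apart from DMSO. Its changes were 1.04 ± 0.10, 0.93 ± 0.10 and 1.28 ± 0.10 (limma adjusted p = 5.61e-09, 7.41e-08 and 5.97e-11).

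Chek1 gave 48.1, 53.4 and 57.5 in DMSO and 112, 109 and 129.6 after MCA, without overlap (1.01 ± 0.12, limma adjusted p = 1.58e-07); it rose by 0.59 after BaP and 0.69 after DAT. Fanca gave 64.4, 71.6 and 97.3 in DMSO and 147, 114 and 150.4 after DAT, every treated array higher (0.77 ± 0.12, limma adjusted p = 1.93e-05), and rose by 0.90 after BaP and 0.95 after MCA. Fancd2 rose by 0.96, 0.67 and 0.79 after BaP, DAT and MCA, Brca2 by 0.54, 0.59 and 0.77, and Blm, the helicase that dissolves joined strands, by 0.49, 0.38 and 0.45. Msh6 passed after BaP alone. It gave 308, 337 and 328 in DMSO and 436, 447 and 404 after BaP, all higher (0.34 ± 0.07, limma adjusted p = 0.000731). After DAT its change was -0.18 (limma adjusted p = 0.0786) and after MCA -0.03 (limma adjusted p = 0.772).

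**Figure D3:**
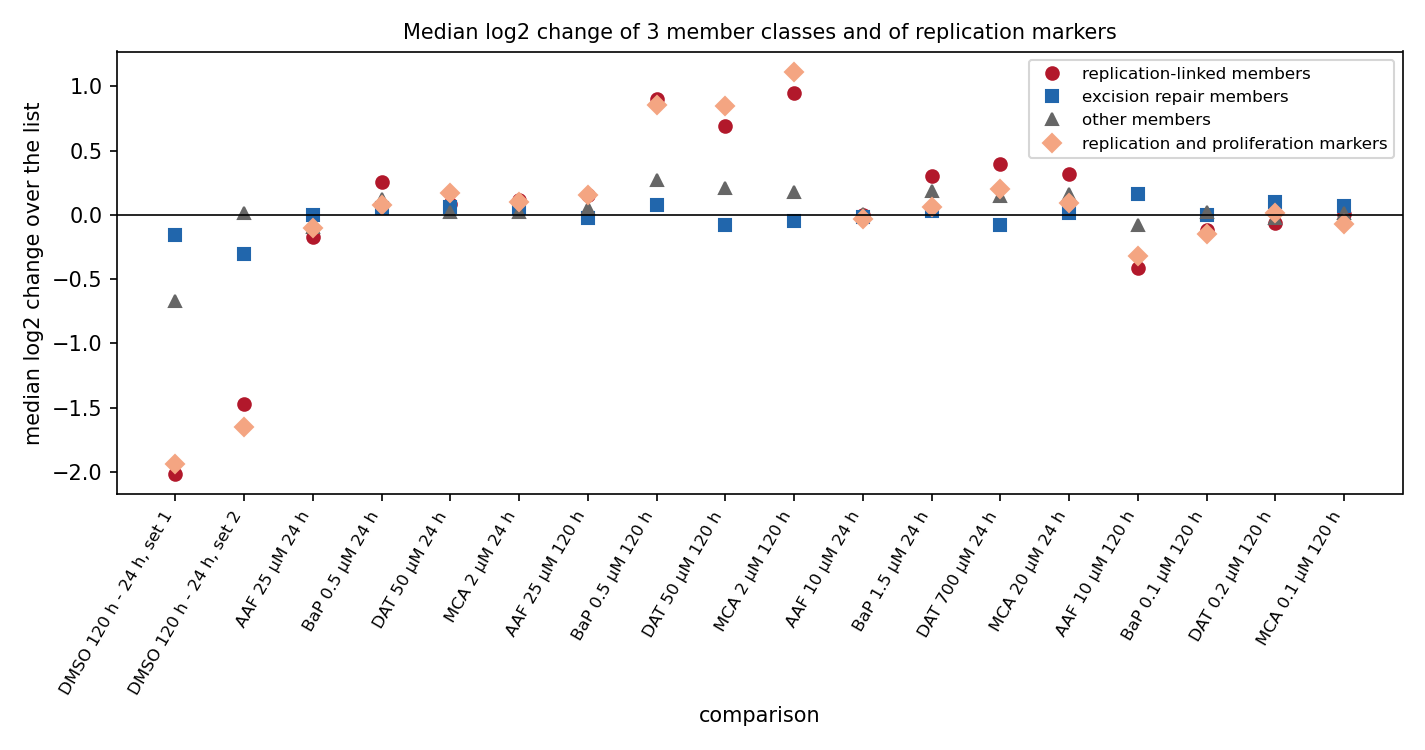
Median log2 change of the 9 replication-linked, 13 excision repair and 11 other genes and of the 19 replication markers in each comparison. The replication-linked median and the marker median have the same sign in the control time comparisons and at 120 h of the first set. At 120 h they are 0.90 and 0.86 after BaP, 0.69 and 0.85 after DAT, and 0.95 and 1.11 after MCA. The excision repair median stays between -0.08 and 0.16 in the treatments.

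Replication markers outside the list moved in the same comparisons: 19 of 19 passed as higher after BaP, with a median of 0.86, 18 after DAT, with 0.85, and 18 after MCA, with 1.11. Of 29 other recombination and Fanconi genes, 11 were higher and 2 lower after BaP, 9 and 2 after DAT, and 17 and 3 after MCA. Of 18 other checkpoint genes 10, 10 and 14 were higher and 1, 0 and 0 lower. Of 27 other excision repair genes 7, 5 and 8 were higher and 1, 1 and 3 lower, led by Neil3, a glycosylase of cycling cells, at 0.94, 1.05 and 1.14, and Lig1, the ligase of Okazaki fragments, at 0.61, 0.83 and 1.06. The part of cycling in the rise of the 9 genes was not tested. Cdkn1a was higher after MCA, at 0.31, and did not pass after BaP (0.18) or DAT (0.16). Of 9 p53 targets, Cdkn1a among them, 4, 2 and 4 were higher and 0, 2 and 3 lower after BaP, DAT and MCA.

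At 120 h of the first set, 1 of the 13 excision repair genes was higher and 1 lower after BaP. After DAT 1 was higher and 0 lower, and after MCA 2 were higher and 2 lower. Of all genes tested, 26.8%, 23.7% and 39.1% were called after BaP, DAT and MCA. Xpc gave 204, 270.2 and 266 after MCA against 276, 316 and 329 in DMSO. The treated arrays were lower without overlap (-0.31 ± 0.09, limma adjusted p = 0.0104), whereas Xpc was at 0.21 after BaP and -0.23 after DAT and passed in neither. Ercc2 gave 104, 109 and 94.1 in DMSO and 72.2, 85.7 and 81.8 after MCA, again all lower (-0.25 ± 0.08, limma adjusted p = 0.0157). Ercc1 went up instead, from 189, 209 and 194 to 299, 287 and 256, all treated arrays higher (0.49 ± 0.09, limma adjusted p = 8.29e-05), and a second of its 4 probe sets passed at 0.70. Xpa gave 184, 234 and 209 in DMSO and 175, 187 and 158 after BaP. These deposited intensities overlapped, while after normalization all BaP arrays were lower (-0.31 ± 0.08, limma adjusted p = 0.00338). The calls of Xpc, Ercc2 and Xpa were lost when arrays were scaled by their medians, at -0.23, -0.23 and -0.22. In base excision and strand break repair, Apex1 was higher after DAT (0.27) and MCA (0.22) and Xrcc1 after BaP (0.26). Ddb2, which rose at 24 h of BaP, gave 155, 151 and 154 in DMSO and 147, 167 and 151 after BaP at 120 h, with overlap and no call (-0.05, limma adjusted p = 0.765).

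Polk, the translesion polymerase known for bypassing bulky guanine adducts of BaP, was the 1 translesion gene called after all 3 chemicals. It gave 135, 155 and 154 in DMSO, 177, 199 and 188 after BaP, 220.1, 168 and 203 after DAT and 243, 254 and 261 after MCA. All treated arrays were above DMSO, with MCA arrays highest (0.27 ± 0.07, 0.42 ± 0.07 and 0.74 ± 0.07, limma adjusted p = 0.00344, 3.32e-05 and 9.71e-10). A second Polk probe set passed after DAT and MCA, at 0.48 and 0.80, and not after BaP, at 0.05. Rad18 gave 108, 110.4 and 108 in DMSO and 303, 239 and 213 after BaP, far apart (1.07 ± 0.19, limma adjusted p = 9.53e-05). After MCA its brightest probe set gave 97.7, 139.7 and 126, in overlap with DMSO and without a call (0.17, limma adjusted p = 0.551), while its other 3 probe sets passed, at 0.85, 0.65 and 0.71, so the absence of a call there rests on 1 probe set. Rev1, the scaffold of translesion synthesis, rose after BaP, by 0.33.

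Atm gave 383, 398 and 441 in DMSO and 895, 636 and 659 after BaP, every treated array higher (0.78 ± 0.09, limma adjusted p = 2.78e-07). It rose by 0.43 after DAT and was at 0.13 after MCA, without a call; a second Atm probe set also passed after BaP and DAT, at 0.74 and 0.39. Chek2 rose after BaP, by 0.62, and was at 0.08 after DAT and 0.18 after MCA. Mdc1 passed after all 3 chemicals, at 0.54, 0.23 and 0.31, and Xrcc6 after DAT and MCA, at 0.22 and 0.43. The DAT calls of Mdc1 and Xrcc6 were each lost without 4 of the 6 arrays in turn. Its Ku partner Xrcc5 rose after MCA, by 0.18. AAF at 25 µM gave 0 calls among the 33 at 120 h, where 0.356% of genes passed (0.324% higher, 0.0317% lower); 3 did not overlap DMSO, as 12.4% of all genes did not, 2 had an unadjusted p under 0.05 and 0 passed with the replicate block.

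The responses at 120 h and 24 h were compared directly where the concentration was the same at both times. The difference, the change at 120 h minus that at 24 h, passed for 9 genes with BaP at 0.5 µM (7 higher, 2 lower), 10 with DAT at 50 µM (all higher) and 16 with MCA at 2 µM (13 higher, 3 lower), where 8.51% of all genes passed with BaP (5.02% higher, 3.48% lower), 8.21% with DAT (4.91% higher, 3.29% lower) and 28.2% with MCA (14.8% higher, 13.4% lower). Brca1, Rad54l, Exo1 and Fanca were among the higher ones with all 3 chemicals; Exo1 differed by 0.84 ± 0.14, 0.86 ± 0.14 and 1.19 ± 0.14. Ddb2 ran the other way, its response being smaller at 120 h with BaP (-0.65 ± 0.13, limma adjusted p = 0.00104). Polk's response was larger at 120 h with DAT (0.42) and MCA (0.69), and did not pass with BaP (0.14). AAF at 25 µM and at 10 µM gave 0 such differences by limma, where 0.0554% and 0% of genes passed; 6 and 5 had an unadjusted p under 0.05, and 1 (Brca1) and 2 (Brca1 and Chek1) passed with the replicate block.

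**Figure D4:**
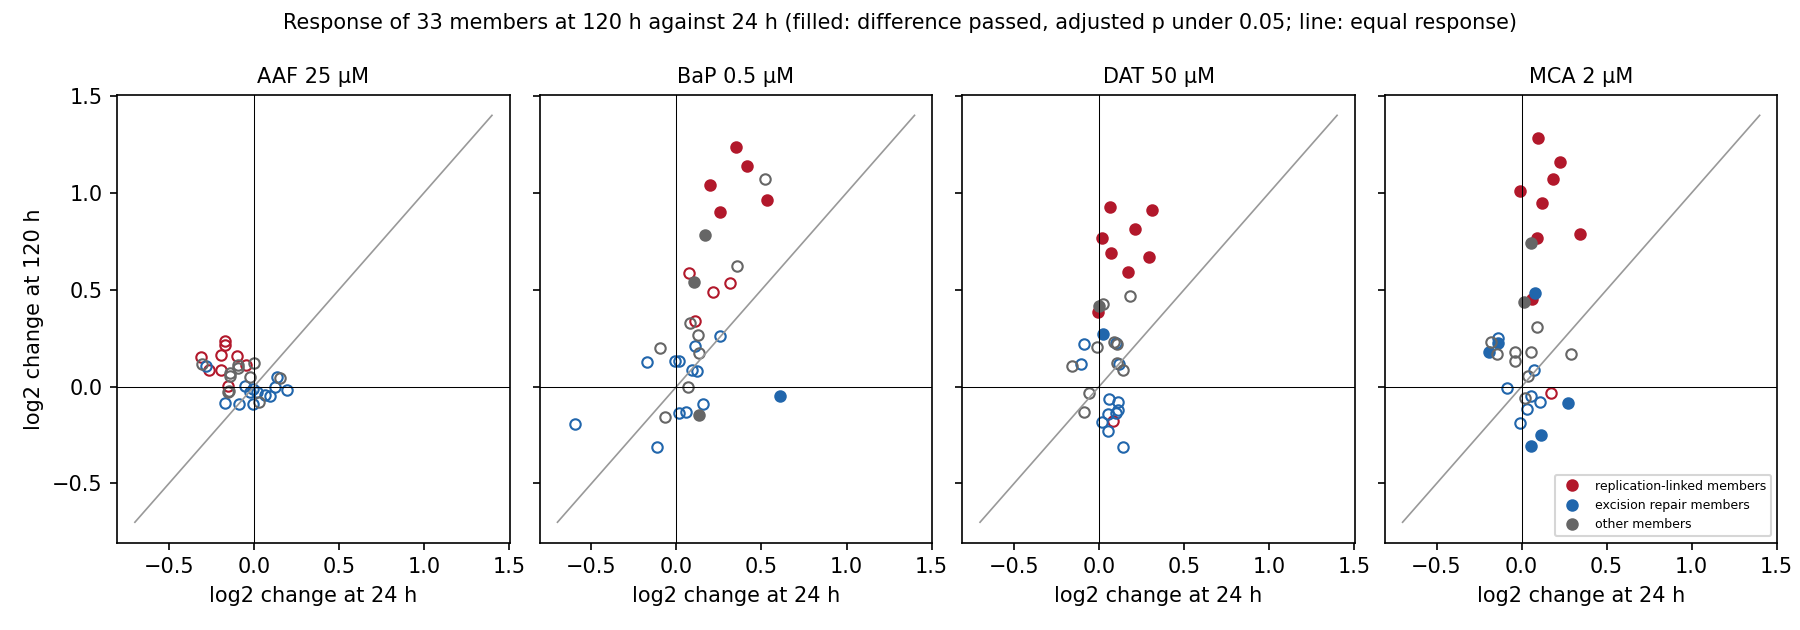
Log2 change at 120 h (vertical axis) against log2 change at 24 h (horizontal axis) of the 33 genes for AAF 25 µM, BaP 0.5 µM, DAT 50 µM and MCA 2 µM in the first set, coloured by class; filled points passed the test of the difference and the line marks equal changes. Exo1, Brca1 and Rad54l lie above the line with BaP, DAT and MCA, and Ddb2 lies below it with BaP (difference of -0.65) and MCA (-0.36). The Ddb2 difference with MCA was lost without 7 of 12 arrays in turn.

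In the second set, where the arrays varied more, Brca1 was the gene called most often. After DAT at 700 µM for 24 h 4 genes rose and 2 fell, where 7.85% of all genes were called (4.19% higher, 3.66% lower). After BaP at 1.5 µM 1 rose, where 2.4% were called (1.19% higher, 1.2% lower). After MCA at 20 µM 0 passed by limma, where 1.31% were called, and 9 had an unadjusted p under 0.05. The replication-linked medians were 0.40, 0.31 and 0.32 after DAT, BaP and MCA. Of the 19 replication markers 3, 1 and 1 passed as higher, with medians of 0.20, 0.06 and 0.09. The part of cycling was not tested. The arrays of 16, 11 and 13 genes did not overlap DMSO after DAT, BaP and MCA, where those of 25.4%, 17.5% and 16.4% of all genes did not. Same-numbered arrays deviated together in these comparisons, and with the number as a block 12, 7 and 6 of the 33 genes passed. The shares of all genes given above are those without the block and with adjusted p. Counts with the block or with an unadjusted p are therefore not read as a trait of the 33 genes.

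Brca1 gave 1900.2, 1879 and 1574 in DMSO, 3144, 3019 and 2772 after DAT, 2868, 2510.3 and 2449 after BaP and 2333, 2392 and 2230.5 after MCA. Every treated array was above every DMSO array. The change passed after DAT and BaP (0.70 ± 0.10 and 0.54 ± 0.10, limma adjusted p = 5.82e-05 and 0.00289) and not after MCA (0.39 ± 0.10, limma adjusted p = 0.0576), where it passed with the block; the BaP call was lost with median scaling, at 0.41. Rad54l gave 1145, 1189 and 1145 in DMSO and 1883, 2040.0 and 1785 after DAT, without overlap (0.66 ± 0.12, limma adjusted p = 0.00111). Fancd2 rose by 0.54 ± 0.16 after DAT (limma adjusted p = 0.034). This call was lost without 5 of the 6 arrays in turn, with median scaling and with no filter on dim genes.

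After DAT at 700 µM both excision repair genes that passed fell. Xpa gave 341, 474 and 442 in DMSO and 263, 230.5 and 301 after DAT, each treated array lower (-0.61 ± 0.17, limma adjusted p = 0.0255). Ung gave 494, 628 and 522 and 359, 406 and 332, again apart (-0.54 ± 0.16, limma adjusted p = 0.0299). The calls of Xpa and Ung were each lost without 4 of the 6 arrays in turn, with median scaling and in the fit of these arrays alone. Polk rose from 399.8, 411 and 483 to 651, 565 and 664 (0.45 ± 0.11, limma adjusted p = 0.0102), while its second probe set was at 0.14 and did not pass. The Polk call was lost without 3 of the 6 arrays in turn, with median scaling and in the fit of these arrays alone. Atm was at 0.55 and did not pass, where its second probe set did, at 0.65. Ddb2 was above DMSO on all arrays after BaP, DAT and MCA, at 0.38, 0.29 and 0.30, and did not pass (limma adjusted p = 0.256, 0.296 and 0.51). Cdkn1a rose after DAT (1.35) and BaP (1.01), and of 9 p53 targets, Cdkn1a among them, 5 and 2 passed as higher. Without DMSO array 2 the DAT calls among the 33 fell to 2 and without DAT array 3 to 3. AAF at 10 µM for 24 h gave 0 calls, where 0.0237% of genes passed; 0 had an unadjusted p under 0.05, and 0 did not overlap DMSO, where 5.6% of all genes did not.

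At 120 h of the second set AAF at 10 µM was the 1 treatment with calls, and both were falls. Rad54l gave 368, 335 and 409 in DMSO and 211, 260.5 and 269 after AAF. Every treated array was lower (-0.61 ± 0.12, limma adjusted p = 0.0195). Brca1 gave 533, 592 and 646 and 435, 426 and 459, also without overlap (-0.45 ± 0.10, limma adjusted p = 0.0335). Of all genes 0.562% passed (0.182% higher, 0.38% lower), and 10 of the 33 did not overlap DMSO, as 12.4% of all genes did not; all 9 replication-linked changes were below 0, with a median of -0.41, and 3 of the 19 replication markers passed as lower, with a median of -0.32. Both calls were lost without AAF array 1 or DMSO array 3, 1 of them without AAF array 2 or DMSO array 2, and both with median scaling, at -0.49 and -0.34. With the replicate block 7 genes passed, 6 of them lower, while the shares of all genes given here are those without the block.

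BaP at 0.1 µM, DAT at 0.2 µM and MCA at 0.1 µM gave 0 calls each among the 33 genes by limma, where 1.44%, 0% and 2.47% of all genes passed. In these, 4, 1 and 7 of the genes had an unadjusted p under 0.05, and 2, 0 and 3 passed with the replicate block; 3, 3 and 5 did not overlap DMSO, where 14.6%, 9.8% and 13.7% of all genes did not. The changes nearest to passing were Ung after BaP, at -0.58 ± 0.16 (limma adjusted p = 0.0655), and Chek1 after MCA, at -0.53 ± 0.15 (limma adjusted p = 0.07). The replication-linked changes ran from -0.41 to 0.06 after BaP, -0.32 to 0.04 after DAT and -0.53 to 0.07 after MCA. Cyp1a1 was higher by 5.45 after BaP and 7.35 after MCA, and at 0.01 after DAT.

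BaP and MCA are both polycyclic aromatic hydrocarbons with fused rings, MCA carrying a methyl group and a ring with saturated carbons, and they met at a matched concentration and time only at 0.1 µM for 120 h, the 1 pair compared. None of the 33 genes differed between them by limma, where 0.0791% of all genes did, and 0 had an unadjusted p under 0.05 or arrays that did not overlap, where 5.67% of all genes had. The differences, BaP minus MCA, ran from -0.36 to 0.34. The lowest and highest bounds of their 95% intervals over the 33 genes were -1.21 and 0.80. Interval widths varied by gene, and differences within a gene's own interval were not resolved. In Brca1 the interval was -0.22 to 0.20 and in Rad54l -0.47 to 0.04. Cyp1a1 was lower with BaP than with MCA, at -1.90 on the log2 scale (limma adjusted p = 4.07e-07). At other times the concentrations differed, and no comparison between these chemicals was made.

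Over the 16 treatments 25 of the 33 genes passed at least once, in 8 of the treatments, and 8 in none. The share of all genes passing at least once was not counted, and 39.1% passed after MCA at 2 µM for 120 h alone. The count is therefore not read as a trait of the 33 genes. Brca1 was higher in 6 and lower in 1, Fancd2 higher in 6, Rad54l higher in 5 and lower in 1, and Brca2 and Polk higher in 4 each. The Fancd2 calls after MCA at 2 µM for 24 h and DAT at 700 µM were lost without 4 and 5 of 6 arrays in turn. The Polk call after DAT at 700 µM was lost without 3 of 6. That of Brca2 after BaP at 0.5 µM for 24 h was lost without 4 of 6. The 8 genes without a call were Ddb1, Ercc5, Rad23b, Parp1, Ogg1, Atr, the kinase that senses stalled forks, Polh and Mgmt, which removes alkyl groups from guanine. The changes of Ddb1 ran from -0.14 to 0.19 over the 16 treatments, those of Ercc5 from -0.15 to 0.18, those of Parp1 from -0.13 to 0.22, and those of Atr from -0.14 to 0.21. Mgmt ran from -0.16 to 0.23, Rad23b from -0.27 to 0.18, Ogg1 from -0.31 to 0.30 and Polh from -0.35 to 0.39. Atr, Mgmt and Ogg1 passed in neither control time comparison either. A further 34 probe sets above the median on at least 3 arrays were named for 18 of the genes; over the 191 pairs of a called change and such a probe set 96 passed in the same direction, 173 had the same sign and 0 passed in the opposite direction.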

How the data were processed

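The deposited values are linear intensities of 45101 probe sets on single-colour oligonucleotide arrays; the submitters' processing notes name GCOS, and the summary method and scaling are not given in the sources used here. Of the deposited probe sets, 34958 had 1 gene symbol in the platform annotation, 932 had several and 9211 were not listed. From these intensities log2(intensity + 16) was computed and quantile-normalized within each set, so the log2 values derive from what the authors deposited. The probe set with the highest mean stood for a gene, and a gene was tested if it exceeded the array median on at least 3 arrays. A limma fit (version 3.58.1, R 4.3.3) of 10 group means per set, with a mean-variance trend and 20 residual degrees of freedom, gave 24 comparisons with two-sided p-values adjusted by Benjamini-Hochberg over all 12637 genes. Errors beside log2 changes are SE with 3 arrays per group. The precision is limited by that number; recovery was tested on simulated data. The replicate numbers come from the labels, and deviations of same-numbered arrays correlated over 0.1 in all 3 pairs of 14 of 19 comparisons. Alternatives were median scaling, pseudocounts of 1 and 64, no filter, a fit of all 60 arrays, a fit of each comparison's arrays, the replicate block and leaving out each array. Shares of all genes called are those of the fit without the block. None is set beside counts with the block or with an unadjusted p under 0.05, so those counts are not read as a trait of the 33 genes. All 33 genes were named, with array values for up to 4 called genes with the largest change per comparison and for genes that moved against their class; other genes were named for up to 3 largest rises and falls per list and comparison, and array values of further genes were added after being seen. The members and lists were chosen with earlier results of these data known.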

Additional observations from a re-analysis of the deposited data

Results flagged for a closer look

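In 35 cases the response of 1 of the 33 genes differed between 24 h and 120 h at an unchanged concentration, by a limma test of the difference itself, the log2 change at 120 h minus that at 24 h. With BaP at 0.5 µM the difference was 0.89 for Brca1, 0.84 for Exo1, 0.72 for Rad54l, 0.65 for Fanca, 0.61 for Atm, 0.44 for Mdc1 and 0.43 for Fancd2. It was negative for Ddb2, at -0.65, and for Xrcc5, at -0.28, and the highest limma adjusted p among these 9 was 0.0317. With DAT at 50 µM the difference was 0.86 for Exo1, 0.75 for Fanca, 0.62 for Chek1, 0.60 for Brca1, 0.60 for Rad54l, 0.42 for Brca2, 0.42 for Polk, 0.39 for Blm, 0.38 for Fancd2 and 0.25 for Apex1, with a limma adjusted p of 0.0463 at most. With MCA at 2 µM it was 1.19 for Exo1, 1.02 for Chek1, 0.94 for Rad54l, 0.89 for Brca1, 0.83 for Fanca, 0.69 for Polk, 0.68 for Brca2 and 0.44 for Fancd2. Smaller differences were those of Xrcc6 at 0.42, Ercc1 at 0.40, Blm at 0.39, Rad23b at 0.37 and Apex1 at 0.36. Xpc, Ddb2 and Ercc2 had negative differences with MCA, of -0.36, -0.36 and -0.36, and the highest limma adjusted p among these 16 was 0.0436. Some of the 35 were unstable. The MCA differences of Xpc and Ddb2 and the BaP difference of Xrcc5 were each lost without 7 of 12 arrays in turn. Those of Brca2, Fancd2 and Chek1 with DAT were lost without 9, 6 and 5 of 12. Others of the 35 were lost under another processing. Those of Fancd2 with all 3 chemicals were lost in the fit of all 60 arrays, with median scaling and with a pseudocount of 64. That of Ercc2 with MCA was lost in the fit of all 60 arrays and with median scaling. That of Atm with BaP was lost in the fit of all 60 arrays. The 3 chemicals share both sets of DMSO arrays, so these differences are not independent of each other. Replication markers moved alike, with 16, 14 and 17 of 19 passing as higher in the same test, and the part of cycling was not tested.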

How the results depend on the processing

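The 145 calls of the 33 genes over 24 comparisons never changed direction under an alternative; 99 were kept in every alternative that used all arrays of its comparison and 113 whenever 1 array was left out. The number of genes called moved by over 1.5 times in the following cases, and the cause was not tested. In 1 fit of all 60 arrays it was 5 for BaP 0.5 µM at 24 h, 0 for MCA 2 µM at 24 h, 4 for BaP 1.5 µM, 10 for DAT 700 µM, 4 for MCA 20 µM, 5 for AAF 10 µM at 120 h, 1 each for BaP and MCA 0.1 µM, and 5, 5 and 9 for the time differences of BaP, DAT and MCA. With median scaling it was 5 for BaP 0.5 µM at 24 h, 0 for MCA 2 µM at 24 h, BaP 1.5 µM and AAF 10 µM at 120 h, 2 for DAT 700 µM, and 3 for the time difference of DAT. A pseudocount of 1 gave 1 for BaP 0.1 µM, and a pseudocount of 64 gave 1 for MCA 20 µM and 6 for the time difference of DAT. The fit of the comparison's own arrays alone gave 0 for MCA 2 µM at 24 h, BaP 1.5 µM and AAF 10 µM at 120 h, and 3 for DAT 700 µM. With the replicate block the count was 1 for AAF 25 µM at 24 h, 2 for DAT 50 µM at 24 h, 3 for MCA 2 µM at 24 h, 7 for BaP 1.5 µM, 12 for DAT 700 µM, 6 for MCA 20 µM, 7 for AAF 10 µM at 120 h, 2 for BaP 0.1 µM, 3 for MCA 0.1 µM, and 1 and 2 for the time differences of AAF 25 µM and 10 µM; numbers paired the arrays in 14 of 19 comparisons, not in those of MCA 2 µM at 24 h or BaP 0.1 µM, and the block ended none of the 145 calls. Without 1 array at a time it ran from 5 to 7 for BaP 0.5 µM at 24 h, 0 to 2 for MCA 2 µM at 24 h, 2 to 4 for DAT 700 µM, 0 to 2 for AAF 10 µM at 120 h, 0 to 1 for BaP 0.1 µM (1 without BaP array 2 or DMSO array 1) and 6 to 9 for the time difference of DAT (6 without DMSO array 1 of 120 h or DAT array 3 of 24 h). Counts of the other comparisons stayed within 1.5 times. Median scaling put the median of all genes in the second set at -0.15 for MCA 20 µM, -0.11 for AAF 10 µM at 24 h and 0.16, 0.10 and 0.11 for BaP, DAT and MCA at 120 h, and moved the share of called genes that were higher from 49.8% to 26.8% for BaP 1.5 µM, from 47.6% to 22.7% for MCA 20 µM, from 66.5% to 78.6% for BaP 0.1 µM, from 32.4% to 100% for AAF 10 µM at 120 h, and from 59.1%, 59.9% and 52.5% to 70.2%, 75.2% and 73.5% for the time differences of BaP, DAT and MCA. In simulated data 1.5-fold changes were recovered at 89.6% in the first set (BaP 0.5 µM at 24 h) and at 41.8% in the second (DAT 700 µM). The simulated noise was independent between arrays, while same-numbered arrays of the series deviated together, so recovery in the deposited data was not measured. A call missing in the second set does not show that a gene was unchanged.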
